A study of Gossypium hirsutum with 3 samples.

Results

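The genes described here are 3 cotton aquaporins, Contig11002, Contig6612 and Contig4366, of 11143 genes on the array. They were picked by their contig names with their change between the stages already known, so that change is given below as a description and without a test. On the best protein matches listed by the study, Contig11002 resembles a tonoplast intrinsic protein of Mimosa pudica, Contig6612 the gamma tonoplast intrinsic protein of Arabidopsis, and Contig4366 a plasma membrane intrinsic protein of Astragalus membranaceus. Contig11002 is read by 1 probe printed as 3 spots, Contig6612 by 4 probes and Contig4366 by 3 probes, each printed once. These are 8 of the 40372 probes and 10 of the 42034 gene spots.

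Aquaporins are membrane channels that let water pass along an osmotic gradient. Tonoplast intrinsic proteins sit in the membrane of the vacuole, and in Arabidopsis the gamma form is known from expanding cells. Plasma membrane intrinsic proteins sit in the outer cell membrane. A cotton fiber is a single cell of the ovule epidermis that lengthens greatly after flowering while a large central vacuole fills with solutes and water, and water has to cross both membranes for the cell to swell.

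The study compared fiber of field-grown Gossypium hirsutum at 1 dpa (day post anthesis), when fiber initials bulge from the ovule, with elongating fiber at 10 dpa. Each of 3 custom Agilent arrays with paired dyes carried cDNA of both stages, called replicates 1 to 3 here without any order. The 10 dpa cDNA was red (Cy5) on replicates 1 and 3 and green (Cy3) on replicate 2. The labels call the RNA total RNA, while the methods describe polyribosomal RNA, separate days of harvest for the replications, many pooled bolls for 1 dpa fiber, and the cultivars DES119 and ST4793R without saying which of them each array carried. The array files hold 2 distinct codes of RNA for each stage, shared between replicates 1 and 2 at 1 dpa and between replicates 1 and 3 at 10 dpa. The p-values from limma rest on the spread between these arrays, a gene's own mixed with that pooled over all genes. This spread may be partly technical. Fiber at 1 dpa was shaken off frozen ovules with glass beads, and fiber at 10 dpa was dissected off, so stage and way of harvest cannot be told apart. Because the RNA came from many cells, fewer cells of a type and less RNA per cell cannot be told apart either.

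The signal of a spot is its mean pixel intensity as scanned, with no correction. It is set here against the 314 negative control spots of each array, whose 95th percentile lay between 71.2 and 187 units. Of the gene spots, 81.2% to 92.2% were brighter than that. Replicate 1 stood apart, with a median green negative control of 164 units against 84.5 and 83.7 on the others. Across genes its log2 ratios correlated with those of replicates 2 and 3 with r = 0.575 and 0.601, and those of replicates 2 and 3 with each other with r = 0.839. All 7 benchmark genes used as fiber markers had at least 1 spot above the negative controls in each stage on all 3 arrays. Most gene spots of the array were above them too, so this does not show how pure the fiber was. Markers of other ovule cells were not among the described genes, so their part in these values was not tested.

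Both tonoplast aquaporins were higher in 10 dpa fiber and the plasma membrane aquaporin was lower. After normalization, Contig11002 was 7.13-fold and Contig6612 was 6.96-fold higher at 10 dpa, whereas Contig4366 was 3.52-fold lower. In log2 ratios of 10 dpa to 1 dpa fiber these are 2.83 ± 0.40, 2.80 ± 0.12 and -1.82 ± 0.28 (SD, n = 3 arrays). Each of the 10 spots had the same sign on all 3 arrays. In the list of mean ratios Contig11002 was the 12th and Contig6612 the 13th highest of all 11143 genes, and Contig4366 was the 29th lowest. Of all genes, 22.4% had a positive mean ratio on every array and 20.1% a negative one, and 3.59% and 1.97% did so with a mean change of at least 2-fold. These shares are given for scale only, since the genes were chosen for this change.

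Contig11002 resembles an aquaporin that conducts water across the vacuole membrane. On replicate 1 its 3 spots read 668, 924 and 668 units in 1 dpa fiber and 5777, 6808 and 5709 units in 10 dpa fiber. On replicate 2 they read 221, 292 and 276 units at 1 dpa and 1078, 1296 and 1287 units at 10 dpa. On replicate 3 they read 150, 184 and 185 units at 1 dpa and 1552, 1886 and 1917 units at 10 dpa. In every spot and on every array the 10 dpa signal was the higher, and no 10 dpa reading was as low as the highest 1 dpa reading. The 1 dpa signal was 1.63 to 4.94 times the 95th percentile of the negative controls, and the 10 dpa signal was 11.4 to 51.0 times it. So the gene was above the negative controls at both stages, and least so in 1 dpa fiber on replicate 3.

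After normalization the arrays gave Contig11002 log2 ratios of 2.61, 2.60 and 3.30 in turn. Replicates 1 and 2, which share a 1 dpa RNA code and have the dyes exchanged, nearly coincided, and replicate 3 lay above both. Before normalization they did not coincide. The raw log2 ratios of the spots were 2.88 to 3.11 on replicate 1, 2.15 to 2.29 on replicate 2 and 3.36 to 3.37 on replicate 3. The 3 spots stand at distant places of the array and carry the same oligonucleotide, so their spread is technical. Within an array it was an SD of 0.19, 0.06 and 0.03 on replicates 1 to 3, while the SD between arrays was 0.40. The ratio of this gene rests on a single oligonucleotide, since no other probe of the array carries its name.

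**Figure D1:**
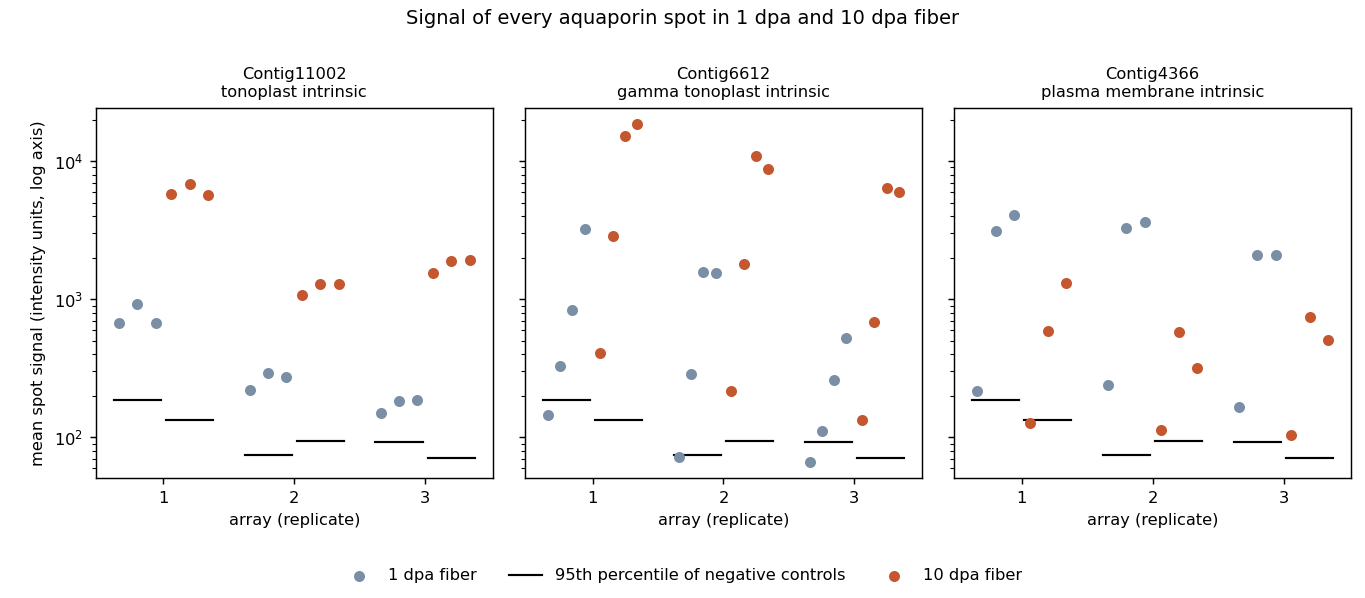
Mean signal (log axis) of each spot of the 3 aquaporin genes on each of 3 arrays, with 1 dpa fiber in grey-blue and 10 dpa fiber in orange. Black bars mark the level that 95% of the negative control spots of that channel do not exceed. The spots of Contig11002 and Contig6612 are brighter in 10 dpa fiber and those of Contig4366 in 1 dpa fiber, and the dimmest probe of Contig6612 lies under the bar at 1 dpa on every array.

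Contig6612 resembles gamma-TIP, another channel of the vacuole membrane. Its probe 3 read 836, 1583 and 259 units in 1 dpa fiber on replicates 1 to 3, and 15334, 10874 and 6358 units in 10 dpa fiber. Its probe 4 read 3211, 1548 and 524 units at 1 dpa and 18437, 8848 and 6022 units at 10 dpa. Its probe 2 read 328, 286 and 111 units at 1 dpa and 2859, 1814 and 683 units at 10 dpa. All 3 probes were brighter in 10 dpa fiber on all arrays, and in none of them did the readings of both stages overlap. Probe 1 was far dimmer, with 144, 72.0 and 66.8 units at 1 dpa and 407, 217 and 133 units at 10 dpa. Over the 3 arrays these readings overlapped, though on each array the 10 dpa reading was the higher. In 1 dpa fiber it stayed under the 95th percentile of the negative controls on all arrays (0.72 to 0.97 times it), and in 10 dpa fiber it was above it (1.87 to 3.05 times). For this probe the ratio is only an estimate, about 2.72-fold in the mean over arrays. Its 1 dpa level was set to the lowest normalized level among gene spots above the negative controls, so a smaller fold is possible. Where the measured level was higher, that was kept.

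The mean log2 ratios of probes 2 to 4 of Contig6612 were 2.94, 3.79 and 2.65, or 7.70, 13.8 and 6.26-fold. These probes shared the direction and differed in size, and probe 1, known only as an estimate, has no place in their order. Averaged over all 4 probes, with probe 1 at its normalized value, the gene gave 2.70, 2.78 and 2.93 on the 3 arrays. This mean over probes had an SD of 0.12 between arrays, while probes 1 to 4 singly had 0.56, 0.23, 0.55 and 0.87. The small SD thus belongs to the mean and not to any probe. Within an array the 4 probes had an SD of 0.78 to 1.25. Probe 4 differed most between arrays, with 1.64 on replicate 1 against 3.07 and 3.23 on the others. With only the 3 probes that were above the negative controls in both stages, the log2 ratio of the gene was 3.13.

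Contig4366 resembles a water channel of the outer cell membrane, and it went the other way. Its probe 2 read 3097, 3254 and 2108 units in 1 dpa fiber on replicates 1 to 3, and 592, 578 and 742 units in 10 dpa fiber. Its probe 3 read 4063, 3645 and 2089 units at 1 dpa and 1317, 318 and 504 units at 10 dpa. Both probes were brighter in 1 dpa fiber on every array, with no overlap between the stages. Its probe 1 was dim, with 215, 241 and 167 units at 1 dpa and 127, 112 and 105 units at 10 dpa. That probe also read lower at 10 dpa on each array, but at 10 dpa it was only 0.95 to 1.47 times the 95th percentile of the negative controls, and on replicate 1 it was under it.

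The mean log2 ratios of probes 1 to 3 of Contig4366 were -0.64, -2.24 and -2.56, that is 1.56, 4.73 and 5.91-fold lower in 10 dpa fiber. The mean over probes was -1.76, -2.12 and -1.57 on the 3 arrays. The fold of this gene depends on the dim probe. Without probe 1, which was not above the negative controls in both stages on all arrays, the log2 ratio was -2.40 in place of -1.82. In 10 dpa fiber the gene was not lost from the array, since probes 2 and 3 still read 3.36 to 10.4 times the 95th percentile of the negative controls.

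**Figure D2:**
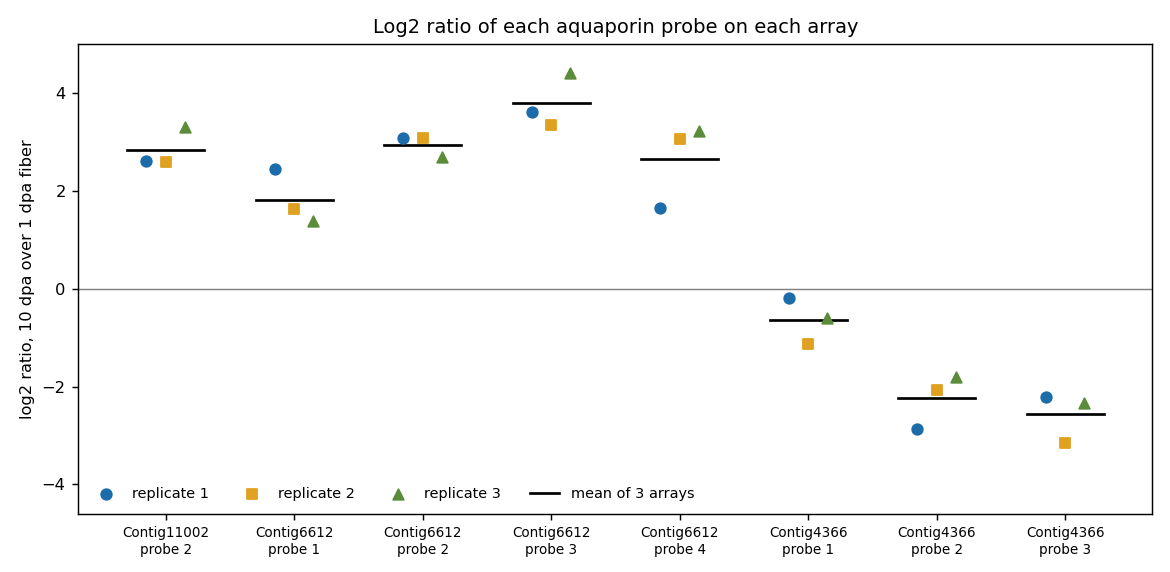
Normalized log2 ratio of 10 dpa to 1 dpa fiber for each of the 8 probes, with 1 symbol for each array and a black line at the mean of 3 arrays. All probes of Contig11002 and Contig6612 lie above 0 and all probes of Contig4366 below it. The points of probe 1 of Contig6612 are its measured ratios, not the estimate given in the text. Its 1 dpa signal was under the 95th percentile of the negative controls on every array, so the size is uncertain.

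The stages did not overlap in normalized log2 level either. Contig11002 lay between 7.71 and 9.26 at 1 dpa and between 10.40 and 11.87 at 10 dpa. Contig6612 lay between 7.72 and 8.75 at 1 dpa and between 10.64 and 11.53 at 10 dpa. Contig4366 lay between 10.04 and 10.30 at 1 dpa and between 8.18 and 8.64 at 10 dpa. Of all genes, 12.2% had every 10 dpa level above every 1 dpa level and 10.6% every one below, and nothing is read from these shares. The level of Contig4366 varied least between arrays (SD 0.13 at 1 dpa and 0.24 at 10 dpa), and that of Contig11002 most (SD 0.87 and 0.74). Replicate 1 held the highest level of Contig11002 in both stages, while replicate 3 held its highest ratio.

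The ratios of both tonoplast genes differed by less than their spread between arrays. On replicates 1 to 3 the log2 ratio of Contig6612 minus that of Contig11002 was 0.09, 0.18 and -0.37, a mean of -0.03 ± 0.30 (SD, n = 3 arrays). The distance to the plasma membrane gene was much larger, but the genes were picked with their directions known, so it is only a description. Contig11002 minus Contig4366 was 4.37, 4.71 and 4.87, and Contig6612 minus Contig4366 was 4.46, 4.89 and 4.50. Without replicate 1, which stood apart, the mean log2 ratios were 2.95 for Contig11002, 2.85 for Contig6612 and -1.85 for Contig4366.

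The study's additional file describes 5 other aquaporin genes of the array. By limma's test with an adjusted p under 0.05, 3 of the 5 rose in 10 dpa fiber, 0 fell and 2 were not called. Of all 11143 genes, 8.03% rose and 5.61% fell by the same test, 13.6% together, and the calls were 895 higher and 625 lower with loess but 512 and 191 with median centring in its place. The median log2 ratio of the 5 genes was 1.23, against -0.04 over all genes. The study chose these genes on its own arrays, which leaves their direction without independent support.

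The 3 that rose all resemble plasma membrane intrinsic proteins, the class to which Contig4366 belongs. Contig3229, most like PIP1-3 of grapevine, rose 4.49-fold, with log2 ratios of 2.22, 2.10 and 2.18 on replicates 1 to 3 (adjusted p = 0.000671 from limma). Contig4305, most like the Arabidopsis protein called SIMIP, rose 3.38-fold, with 1.58, 1.69 and 2.00 (adjusted p = 0.0013 from limma). Contig5285, most like a poplar protein, rose 2.34-fold, with 1.49, 0.77 and 1.42 (adjusted p = 0.00823 from limma). So genes described as plasma membrane aquaporins went both ways between the stages, and Contig4366 was the one with a negative ratio. Contig3868, most like PIP1-1 of ash, had log2 ratios of 0.52, 0.26 and 0.66 (adjusted p = 0.071 from limma). Contig16380, whose best match is a mosquito aquaporin, had -0.09, -0.10 and -0.11 (adjusted p = 0.714 from limma), and it did not stand clear of 0. The calls for Contig3229, Contig4305 and Contig5285 were lost when arrays were scaled to each other, although the log2 ratios were then 2.32, 1.94 and 1.28 (adjusted p of 0.0628, 0.0655 and 0.0706 from limma), and in an unmoderated F-test on these arrays (adjusted p of 0.156, 0.192 and 0.266), and that for Contig5285 also with the median of its probes (log2 ratio 0.81, adjusted p = 0.0948 from limma).

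**Figure D3:**
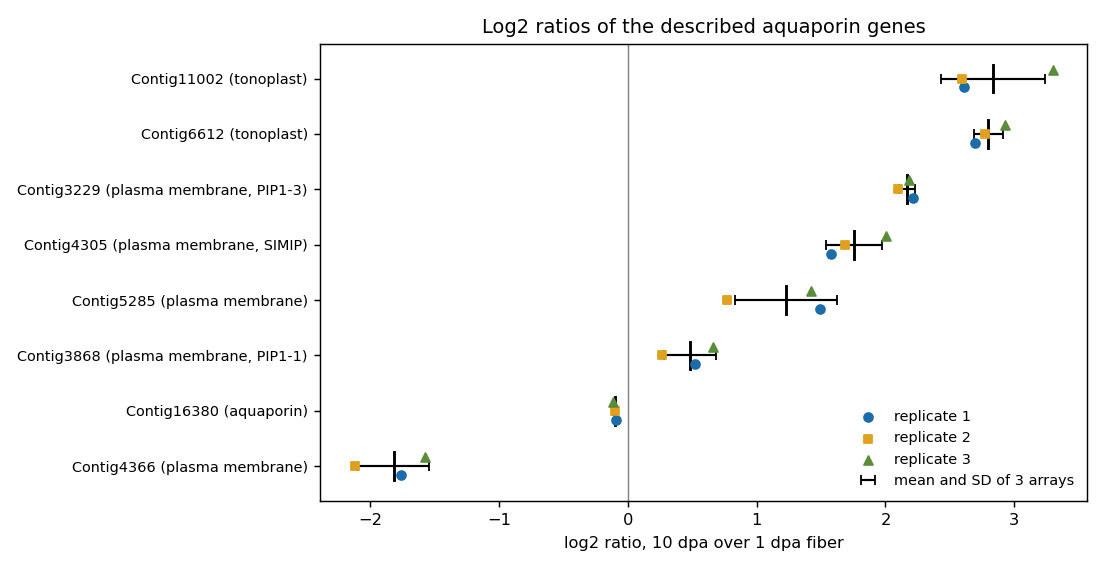
Log2 ratio of 10 dpa to 1 dpa fiber for all 8 aquaporins that the study's additional file describes, with a symbol for each array and black bars for the mean and SD of 3 arrays. Both tonoplast genes lie highest (means 2.83 and 2.80), the plasma membrane genes run from 2.17 down to -1.82, and Contig16380 lies near 0.

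In the order of mean log2 ratios, Contig11002 and Contig6612 came first, followed by Contig3229 at 2.17 ± 0.06, Contig4305 at 1.76 ± 0.22, Contig5285 at 1.23 ± 0.40, Contig3868 at 0.48 ± 0.20, Contig16380 at -0.10 ± 0.01 and Contig4366 (SD, n = 3 arrays). The pair at the top lay within each other's SD. The lowest array of Contig6612, 2.70, was above the highest array of Contig3229, 2.22, so the gene means of these neighbours did not overlap. Their single probes did, since on replicate 1 probe 4 of Contig6612 gave 1.64 and probe 1 of Contig3229 gave 2.54. Contig4305 and Contig5285 came close, with 1.58 as the lowest array of the former and 1.49 as the highest of the latter. Further down, too, no gene means of neighbours overlapped. This order holds for means over probes, and probe means within Contig4305 alone ran from 0.25 to 2.48.

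Probes of the same aquaporin gene often disagreed in size. Over probes above the negative controls in both stages on all arrays, the range between the highest and the lowest mean log2 ratio was 1.14 for Contig6612 (3 probes) and 0.32 for Contig4366 (2 probes). The 7083 genes with at least 3 such probes had a median range of 0.38 and a 90th percentile of 0.94. Among the other aquaporins with at least 3 such probes it was 2.23 for Contig4305, 1.52 for Contig3868, 0.73 for Contig3229 and 0.33 for Contig16380. Contig6612, Contig4305 and Contig3868 thus lay above that percentile, and Contig5285 had a range of 2.02 over 2 probes. The choice of probes above the negative controls was made after the data were seen. Over all probes, the median range was 0.37 for all genes with at least 3 probes. For the 562 of them changed at least 2-fold it was 0.78, with a 90th percentile of 1.92. Beside these, Contig6612 had 1.97, Contig4366 1.92, Contig3229 0.73, Contig4305 2.23 and Contig5285 2.77.

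In Contig3868 and Contig5285, 1 probe lay far above the rest. In Contig3868 it was probe 4, which had a mean log2 ratio of 1.51 and read 6251, 539 and 367 units at 1 dpa against 21605, 1256 and 1788 at 10 dpa. Its other probes had 0.34, 0.08 and -0.01, and read between 108 and 253 units in both stages, with probe 1 under the 95th percentile of the negative controls at 1 dpa on replicate 1. In Contig5285 it was probe 3, which had 2.82, while probe 2 had 0.81 and probe 1, which read between 101 and 193 units and was under that percentile at 10 dpa on replicate 1, had 0.06. Contig4305 differed, in that its probe 1 had 0.25 with signals of 1178 to 2472 units, well above the negative controls, beside 2.23, 2.07 and 2.48 for its other probes. Aquaporin genes form a family of similar sequences, and hybridization of one gene's cDNA to another's probe was not tested. In 10 dpa fiber on replicate 1, a probe of Contig3229 (64427 units) and a probe of Contig4305 (63903 units) lay close to 65148, the brightest value on the arrays. There the latter probe had a log2 ratio of 1.68, against 2.82 and 2.94 on replicates 2 and 3. The brightest spot of the 3 genes picked by name read 18437 units.

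The vacuole draws in solutes with the help of a proton pump, the V-ATPase, before water follows through aquaporins. Of 4 described pump genes, limma called 2 higher in 10 dpa fiber and 0 lower at an adjusted p under 0.05, against 8.03% and 5.61% of all genes. The subunit D gene Contig15752, part of the pump's rotating stalk, rose 2.06-fold, with log2 ratios of 1.11, 0.97 and 1.05 (adjusted p = 0.00395 from limma). The subunit d gene TMIRS_016_H12.F, which joins that stalk to the membrane part, rose 1.76-fold, with 0.80, 0.91 and 0.73 (adjusted p = 0.00953 from limma). Both genes of the proteolipid that forms the membrane ring stayed nearer to 0. Contig12609 had 0.52, 0.40 and 0.13 (adjusted p = 0.173 from limma), and Contig882 had 0.77, 0.26 and -0.04 (adjusted p = 0.344 from limma).

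Of 7 described genes for sugar and ion supply, the same test called 6 higher in 10 dpa fiber and 0 lower, beside the same 8.03% and 5.61% of all genes. The soluble acid invertases Contig23 and Contig14272, which split sucrose into hexoses, rose 3.17-fold and 1.83-fold (adjusted p = 0.00122 and 0.0215 from limma). A hexose transporter known from a single clone rose 3.44-fold, the hexose transporter Contig13568 rose 2.46-fold and the sugar transporter Contig2352 rose 2.87-fold (adjusted p = 0.00352, 0.00189 and 0.00221 from limma). The dicarboxylate transporter TMIRS_061_A07.F rose 2.17-fold (adjusted p = 0.00327 from limma). A potassium transporter, also known from a single clone, had log2 ratios of 1.18, 0.62 and -0.01 (adjusted p = 0.17 from limma). It was called without replicate 3 (log2 ratio 0.90) and with a term for the dye (0.60). In those runs limma's p-values over the listed genes followed the size of the ratio, so these calls do not measure this gene's spread. The median log2 ratio was 0.58 for the pump genes and 1.30 for the sugar and ion genes, against -0.04 over all genes. All these ratios lay below those of both tonoplast aquaporins. As with the aquaporins, the study chose these genes on its arrays, and every call in both lists was lost with arrays scaled to each other and in the F-test. Without the array as block TMIRS_016_H12.F (adjusted p = 0.39 from limma) and Contig14272 (adjusted p = 0.087 from limma) were not called, nor was Contig14272 with median centring (adjusted p = 0.0778 from limma).

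**Figure D4:**
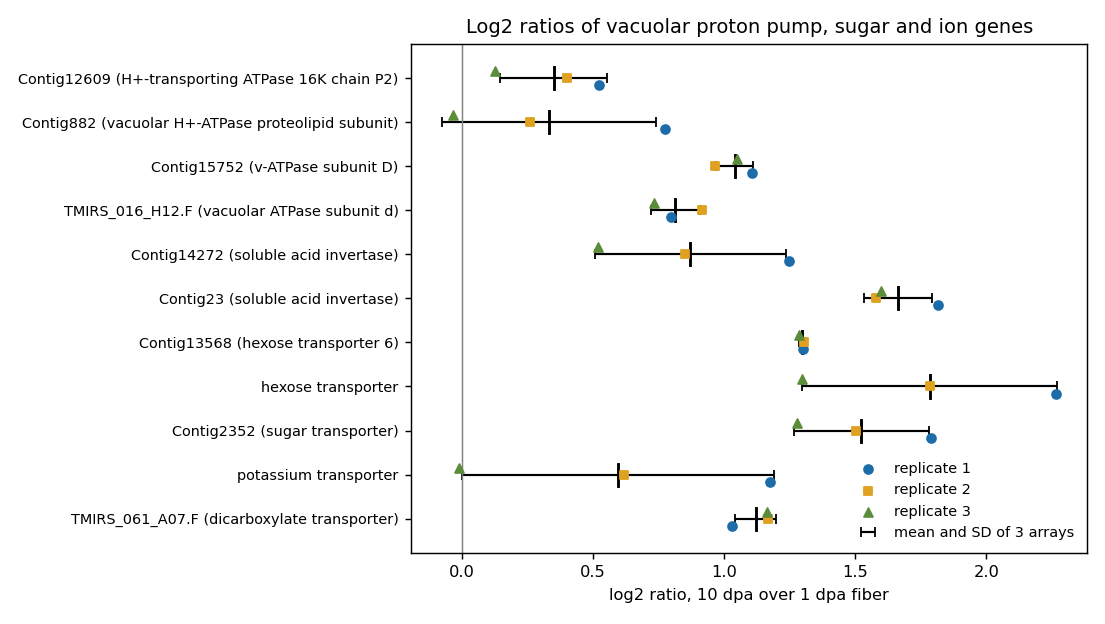
Log2 ratio of 10 dpa to 1 dpa fiber for 4 genes of the vacuolar proton pump and 7 genes of sugar and ion supply, with a symbol for each array and black bars for the mean and SD of 3 arrays. The means run from 0.33 to 1.78, and only Contig882 and the potassium transporter have an array below 0.

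Described genes other than the 3 aquaporins were ranked by the Euclidean distance of their ratios from each aquaporin over the 3 arrays. This distance says how alike 3 numbers are and no more. Nearest to Contig11002 were a clone resembling a Dictyostelium protein tyrosine kinase (distance 0.25), a phospholipase C (TMIRS_056_F04.F, 0.31) and a putative ubiquitin (TMIRS_222_G06.F, 0.36). The same ubiquitin gene was the nearest to Contig6612 (0.13), followed by a clone resembling the lipase EXL4 (0.21) and a gene of the lipid transfer protein family (TMIRS_107_G05.F, 0.22). Nearest to Contig4366 were a WD-40 repeat protein (Contig1481, 0.16), a nucleolar protein (Contig3157, 0.19) and a histone H1 that packs DNA (Contig4454, 0.21). The ubiquitin gene had log2 ratios of 2.72, 2.84 and 3.04 on replicates 1 to 3, and the histone gene had -1.71, -1.95 and -1.69. The genes of the 3 lists had mean log2 ratios from -0.10 to 2.17, too far from the 3 aquaporins to be among the nearest.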

How the data were processed

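The authors' scanner files, quantified with Agilent Feature Extraction Software, hold, for both channels, a mean intensity per spot and a local background value, neither of them corrected. The files used here flag spots well above background in green, and no red or saturation flag was used. The deposited value table holds log2 ratios of red to green after plain background subtraction (equal to 5 decimals for 99.998% to 100% of values), not centred (medians -0.210, 0.172 and -0.0277) and with the dye swap not turned. No probe bears its identifiers, so its use was limited to settling which dye was divided by which.

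Intensities were corrected with limma's normexp (offset 50) and each array was normalized with loess, giving the 2256 control spots weight 0. Probe values are means of spots and gene values are means of probes. Log2 ratios were tested against 0 with lmFit and eBayes over all genes, with Benjamini-Hochberg adjustment and a threshold of 0.05. The array is the block. Normalized levels were taken per channel after Aquantile. The methods' own test, an ANOVA that also takes arrays with ovule cDNA, was not run here. The unmoderated F-test used here tested the mean log2 ratio of each gene against 0 on the 3 fiber arrays. It lacks the probe and spot terms of that ANOVA, so its counts do not stand for the study's test. The tests were checked on simulated data. The software was R 4.3.3 with limma 3.58.1 and jsonlite 2.0.0.

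Genes named are the 3 aquaporins, every gene of 3 lists made from descriptions in the additional file, and the 3 described genes nearest to each aquaporin. The aquaporins and the lists were chosen with earlier results of these data known. The number of arrays limits the precision. Genome positions were not used here.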

Additional observations from a re-analysis of the deposited data

How the results depend on the processing

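The 3 aquaporins kept their direction under every alternative run. Leaving out each replicate moved the log2 ratio between 2.60 and 2.95 for Contig11002, 2.74 and 2.85 for Contig6612, and -1.94 and -1.67 for Contig4366. Contig6612 moved by more than its small SD with no background correction (2.67), scaling between arrays (3.04), the median of probes (2.93), plain background subtraction without normalization (3.07), and only probes above the negative controls in both stages (3.13), a setting that moved Contig4366 to -2.40. The last 2 settings were chosen after seeing the data. All probes of the 3 genes carry a leading RC_ or a1_ in their names, so a run with only such probes left their log2 ratios unchanged (2.83, 2.80 and -1.82).

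The calls over all genes, 895 higher and 625 lower, were 512 and 191 with median centring, 547 and 401 with channels as single samples and no array block, 568 and 323 with plain subtraction (which moved the median over all genes from -0.04 to -0.20), and 0 and 0 with scaling between arrays (2697 genes at an unadjusted p under 0.05 in limma) and with the unmoderated F-test (1811 genes). Leaving out each replicate gave 803 to 979 higher and 447 to 1212 lower, the 1212 without replicate 1. With scaling and with the F-test the counts of higher genes were 0 for the other aquaporins, 0 for the pump and 0 for sugar and ion genes, and the pump gave 1 without the block. Leaving out replicates kept 3 aquaporins and 2 pump genes and gave 6 to 7 sugar and ion genes. Without replicate 2 or 3, limma's p-values over the listed genes followed the size of the ratio, so those calls do not show agreement between arrays. Contig16380 turned to 0.0001 with median centring. The cause of these shifts was not tested. Every ratio pairs both stages within an array, so the run without the array block is the unpaired one. Signals near the negative controls limit the dimmest probes.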
